A study of Mus musculus with 12 samples.

Results

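Radiofrequency heating of middle-aged skin was examined here in 3 male mice of the outbred ICR strain at 1 year of age. Each mouse gave 1 untreated and 1 treated area of dorsal skin, and the treated area received radiofrequency from a TriPollar device every other day for a week. The methods describe a gel on the treated area and massage with the device until its temperature signal came on. Neither is described for the untreated area, so gel, massage and radiofrequency cannot be told apart. The libraries are named by their labels as untreated or treated replicates 1 to 3, and a replicate number marks the same mouse (in the labels, AC-1 and AZ-1 form the pair of replicate 1). The sequenced samples were picked by the study for their pathological phenotype and RNA stability, so they were not a random draw of its animals. The gene table lists 465 genes, which the study had selected for a difference between treated and untreated skin of its 4-month-old mice. A listed gene was a member of the comparison when its mean expected count over the 6 libraries of 1-year-old skin was at least 10, which held for 141 of the 465 genes. The study's choice of the 465 genes therefore used other mice, and the contrast in 1-year-old skin is independent of that choice. The limit on the mean count used both groups of this contrast. A gene low in untreated skin could thus become a member through treated libraries alone. The members lowest in this mean were Gdf6 and C130050O18Rik (both at the limit), the gene just below the limit was Fpr2 (9.83), and 44 listed genes had 0 counts in all 6 libraries.

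Radiofrequency current heats the dermis from within, and heated skin is known to respond with stress signalling and wound-like remodelling. The surface of the skin is made by keratinocytes that leave the basal layer, switch on the suprabasal keratins Krt1 and Krt10, and finally assemble the cornified envelope from loricrin, filaggrin and their relatives, many of which are encoded side by side in the epidermal differentiation complex. Immediate early genes such as Fos and Atf3 encode transcription factors that injury and stress induce quickly, and myeloid genes such as Itgam and Ncf1 mark neutrophils, monocytes and macrophages.

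The libraries held 23133815 to 24659926 fragments in untreated and 24484976 to 27378983 in treated skin, as derived from the counts and the FPKM values (fragments divided by transcript length and by the mapped fragments of the library). The listed genes made up 0.329% to 1.14% of a library, and members had a median mean count of 267.7. Of 55 defining markers of 15 skin cell types, 9 were listed. All 5 suprabasal keratinocyte markers (Krt1, Krt10, Lor, Flg and Krtdap) were members and were detected in all 6 libraries. The defining markers of neutrophils, macrophages, fibroblasts and striated muscle were not analysed here. Some libraries stood apart. Untreated replicate 1 was the highest of the 6 libraries for 43 members and treated replicate 1 for 37, whereas treated replicate 3 was the lowest for 54. How far the calls held without replicate 1 is given with them.

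After treatment, 3 genes rose and 6 fell in 1-year-old skin. The risen genes were Atf3, a stress-induced transcription factor, Xirp1, an actin-binding protein of striated muscle, and Rnf128, a ubiquitin ligase known for its role in T cell anergy. The fallen genes were Flg2, Krt77, Hrnr, Lce1m and Kprp, which encode proteins of the upper epidermis, and Serpina12, a serine protease inhibitor also known as vaspin. These calls had an adjusted p-value (Benjamini-Hochberg, over 141 genes) under 0.05 in edgeR's quasi-likelihood test with the mouse as a block. They were 2.13% of the 141 genes in the higher and 4.26% in the lower direction (6.38% in all). At the threshold of the study's methods (an unadjusted p-value under 0.05 and at least a 1.2-fold change), 26 genes passed (18.4%), of which 11 were higher (7.8%) and 15 lower (10.6%).

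**Figure D1:**
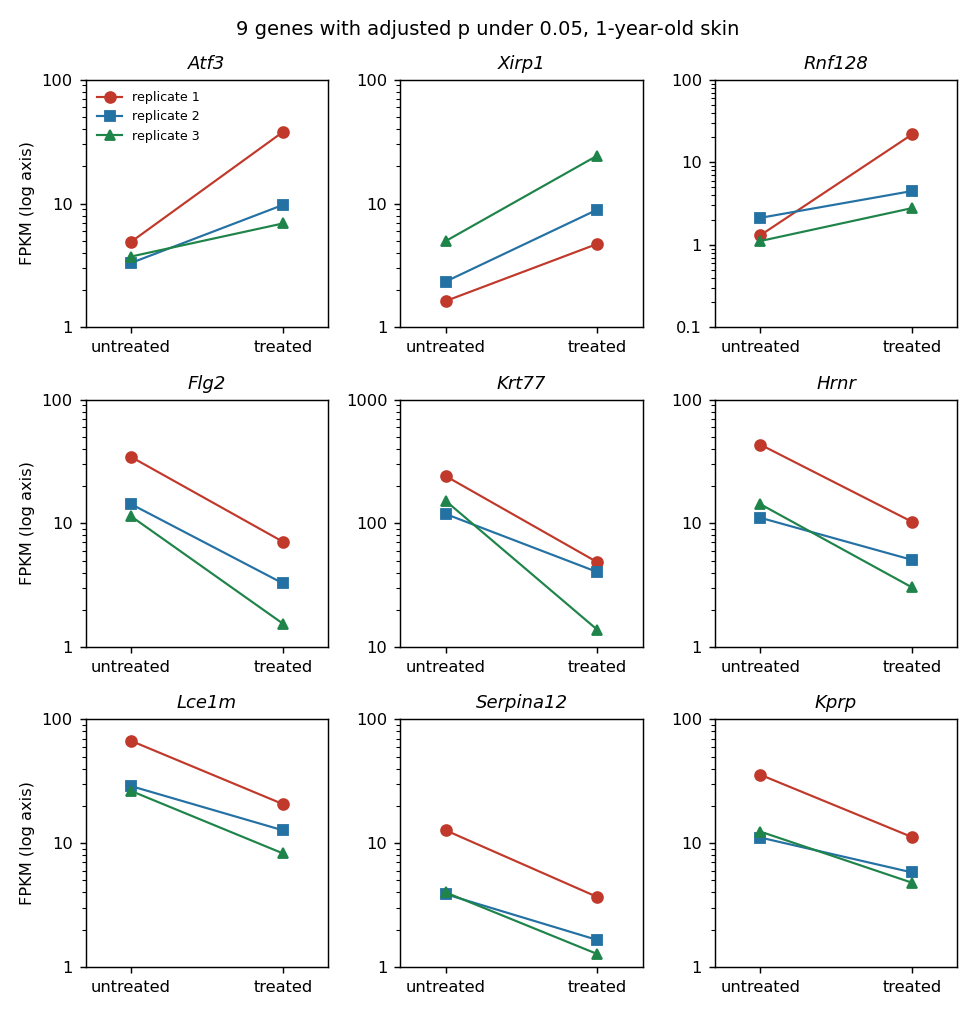
FPKM (log axis) in untreated and treated skin of the 3 mice for the 9 genes with an adjusted p-value under 0.05, with a line joining the libraries of a mouse. Atf3, Xirp1 and Rnf128 were higher in the treated library of each mouse, and the other 6 genes were lower in each.

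The split between higher and lower genes depended on how libraries were scaled. Under TMM factors, which assume that most of the listed genes did not differ, log2 fold changes shifted upward by 0.29 on average (0.17, 0.13 and 0.58 in replicates 1, 2 and 3) and the median over the 141 genes moved from -0.07 to 0.22. There, 12 genes were called higher and 5 lower (70.6% higher, against 33.3% by library totals), and 19 higher and 8 lower passed the threshold of the methods (70.4% against 42.3%). Of the 9 genes, 8 were also called under TMM. The mouse block mattered as well. Without it, edgeR called 0 genes, and 16 had an unadjusted p-value under 0.05.

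All 6 fallen genes stood on a list of genes of the cornified envelope and the suprabasal keratinocyte, Serpina12 among them as a protease inhibitor of these cells. Of 18 listed genes of this group, 15 were members. Of these 15, 6 fell, 0 rose, and the other 9 had adjusted p-values between 0.136 and 0.665. The median log2 fold change of the 15 genes was -1.28, beside -0.07 over all 141. All 15 had a negative log2 fold change, and 13 were lower in 3 of 3 mice, which held for 23.4% of the 141 genes (11 of the 15 with FPKM rescaled by TMM factors). In whole skin, fewer keratinocytes and less RNA per keratinocyte cannot be told apart.

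Flg2, a filaggrin relative of the outermost living layer (chromosome 3, 93197278 to 93221391 in GRCm38), showed the smallest p-value. Its FPKM was 34.4, 14.3 and 11.4 in untreated and 7.11, 3.28 and 1.55 in treated replicates 1, 2 and 3 (20 ± 12.5 against 3.98 ± 2.85, SD, n = 3 each). All 3 treated libraries lay below all 3 untreated ones, and treated skin of the same mouse was 4.84, 4.35 and 7.33 times lower. The log2 fold change was -2.42 (SE 0.41, edgeR adjusted p = 0.00731), and without replicate 1 it was -2.49 (adjusted p = 0.0046).

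Krt77, a keratin of the suprabasal epidermis and the sweat duct (chromosome 15, 101858731 to 101869705), went from 241, 119 and 152 FPKM in untreated to 48.5, 40.4 and 13.8 FPKM in treated replicates 1 to 3. The groups did not overlap, and treated replicate 3 was the lowest library. Its log2 fold change was -2.44 (SE 0.6, edgeR adjusted p = 0.0322). Hornerin (Hrnr), an S100 fused-type protein of the granular layer, had 43.3, 11.1 and 14.3 FPKM in untreated and 10.3, 5.07 and 3.04 FPKM in treated skin. Untreated replicate 1 was far above the other untreated libraries, and the groups still did not overlap. Hrnr fell by 1.83 on the log2 scale (SE 0.47, edgeR adjusted p = 0.0373). Without replicate 1 the log2 fold change was -2.5 for Krt77 (edgeR adjusted p = 0.312) and -1.69 for Hrnr (adjusted p = 0.304).

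Lce1m, a late cornified envelope gene, had 67, 28.9 and 26.4 FPKM in untreated and 20.7, 12.7 and 8.27 FPKM in treated replicates 1 to 3. It fell in each mouse by a similar ratio (3.24, 2.28 and 3.19 times), with a log2 fold change of -1.49 (SE 0.36, edgeR adjusted p = 0.0322). Serpina12, at 12.7, 3.87 and 4 FPKM in untreated and 3.67, 1.65 and 1.27 FPKM in treated skin, also kept its groups apart. Its log2 fold change was -1.56 (SE 0.37, edgeR adjusted p = 0.0322). Kprp, the keratinocyte proline-rich protein, went from 35.7, 11.1 and 12.4 to 11.2, 5.8 and 4.79 FPKM, and treated replicate 1 lay just above the lowest untreated library. Its log2 fold change was -1.33 (SE 0.36, edgeR adjusted p = 0.0446). Without replicate 1 the log2 fold changes were -1.43 for Lce1m, -1.44 for Serpina12 and -1.15 for Kprp, with edgeR adjusted p-values of 0.459, 0.647 and 0.623.

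Other keratins and envelope proteins did not pass edgeR's adjusted test. Krt10 had 1123, 340 and 495 FPKM in untreated and 388, 279 and 152 FPKM in treated replicates 1 to 3, with a log2 fold change of -1.28 (SE 0.8, edgeR adjusted p = 0.418). DESeq2 called it, with adjusted p-values of 0.0295 by its own size factors and 0.0443 by library totals. Its partner Krt1 had 759, 173 and 257 against 276, 192 and 105 FPKM, so that replicate 2 was slightly higher after treatment. Loricrin (Lor), the main envelope protein, was lower in every mouse without overlap of the groups, at 125, 36.9 and 50 against 34.7, 31 and 22.3 FPKM (log2 fold change -1.09, SE 0.44, edgeR unadjusted p = 0.0263, adjusted p = 0.195). Filaggrin (Flg) had 660, 169 and 148 FPKM in untreated and 172, 99.3 and 62 FPKM in treated skin. In these abundant genes untreated replicate 1 was well above the other untreated libraries.

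That library set part of the size of the group's difference. Summed over the 15 genes, FPKM was 5744, 1460 and 1901 in untreated and 1852, 1269 and 745 in treated replicates 1 to 3. Each of the 15 genes had its highest level in untreated replicate 1 and its lowest in treated replicate 3. The median log2 ratio of the 15 genes was -1.67, -0.5 and -1.32 in replicates 1, 2 and 3, so that it was smallest in size in replicate 2. Without replicate 1 the median log2 fold change was -1.01 (beside -0.2 over all genes), and all 15 genes were still negative. There, 5 of them were past the threshold of the methods in place of 8, and 1 was called. Over all 141 genes, 7 were lower at that threshold in this fit, and 1 was called lower. In fits without the mouse block, leaving out only treated replicate 1 gave a median of -1.69 with 8 genes past that threshold (beside 12 lower genes over all 141). Leaving out only untreated replicate 1 gave -0.57 with 2 (beside 3). Under TMM factors the median was -0.98, with 15 of 15 negative and 5 called (beside 5 called lower over all 141 genes).

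Within a library, the ratio of a pair of genes does not depend on the scaling. The log2 ratio of Flg2 to Krt10 was lower in treated than in untreated skin by a mean of 1.25 (changes of -0.74, -1.84 and -1.18 in replicates 1 to 3), and that of Krt77 to Krt10 changed by -0.78, -1.27 and -1.76. The ratio of Krt10 to Krt1 moved less, by -0.08, -0.44 and -0.41. The ratio of Hrnr to Krt10 changed by -0.54, -0.85 and -0.54. Flg2 and Krt77 had the largest negative log2 fold changes of the group, so lower mean ratios to Krt10 follow from their choice. Both lay further below their untreated level than Krt10 did in all 3 mice, although 3 pairs allow no two-sided sign-flip p-value under 0.25.

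Of the 9 members on chromosome 3, 6 (Lor, Kprp, Lce1m, Flg2, Hrnr and Flg) lay within 1.25 Mb of each other (92080271 to 93333570 in GRCm38), in the epidermal differentiation complex. All 6 were lower in 3 of 3 mice (beside 23.4% of all members), and 4 of them fell by the adjusted test (beside 4.26%). They all belong to the keratinocyte group above, and Lor and Hrnr set the ends of the stretch, so these counts are no separate result. The promoters of Flg2, Lor and Krt77 (the 250 bases before the annotated start, from RefSeq, GRCm38.p6) are shown. Flg2 and Krt77 had the largest negative log2 fold changes of the group, within and outside that cluster. Lor is an example from the cluster that did not pass edgeR's adjusted test, and like all 6 genes there it was lower in 3 of 3 mice. Capitals mark the letters TGANTCA, the consensus bound by AP-1 (FOS and JUN family) factors, searched on both strands.
Flg2 promoter, chr3:93197023-93197272, plus strand: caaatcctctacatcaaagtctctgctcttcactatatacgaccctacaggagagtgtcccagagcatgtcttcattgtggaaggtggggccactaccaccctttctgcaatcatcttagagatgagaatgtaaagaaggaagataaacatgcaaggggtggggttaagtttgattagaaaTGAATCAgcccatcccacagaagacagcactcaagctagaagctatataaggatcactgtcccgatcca
Lor promoter, chr3:92083143-92083392, minus strand: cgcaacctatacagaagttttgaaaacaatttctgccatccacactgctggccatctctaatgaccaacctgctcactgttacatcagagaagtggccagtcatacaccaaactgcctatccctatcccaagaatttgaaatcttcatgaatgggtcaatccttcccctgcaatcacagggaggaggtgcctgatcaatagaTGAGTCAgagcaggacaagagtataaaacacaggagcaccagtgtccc
Krt77 promoter, chr15:101869706-101869955, minus strand: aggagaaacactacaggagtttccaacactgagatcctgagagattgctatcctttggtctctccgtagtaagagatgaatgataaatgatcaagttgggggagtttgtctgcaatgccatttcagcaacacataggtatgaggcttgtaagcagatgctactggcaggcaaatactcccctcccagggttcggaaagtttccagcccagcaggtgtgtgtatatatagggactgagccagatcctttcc
The match lay 69 bases before the start in Flg2 and 48 in Lor, and Krt77 had none in this window. Among the promoters of the keratinocyte group these letters stood in 6 of 14 (42.9%, from 5 of 13 genes: Flg, Flg2, Krtdap, Lor and Serpinb2), and among all 32851 promoters of the table in 6.75%. Among members they stood in 12 of 133 promoters (9.02%). Among the genes called by edgeR's adjusted test they stood in 1 of 7 promoters (14.3%), that of Flg2. A match is a description of the sequence, and binding was not measured.

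**Figure D2:**
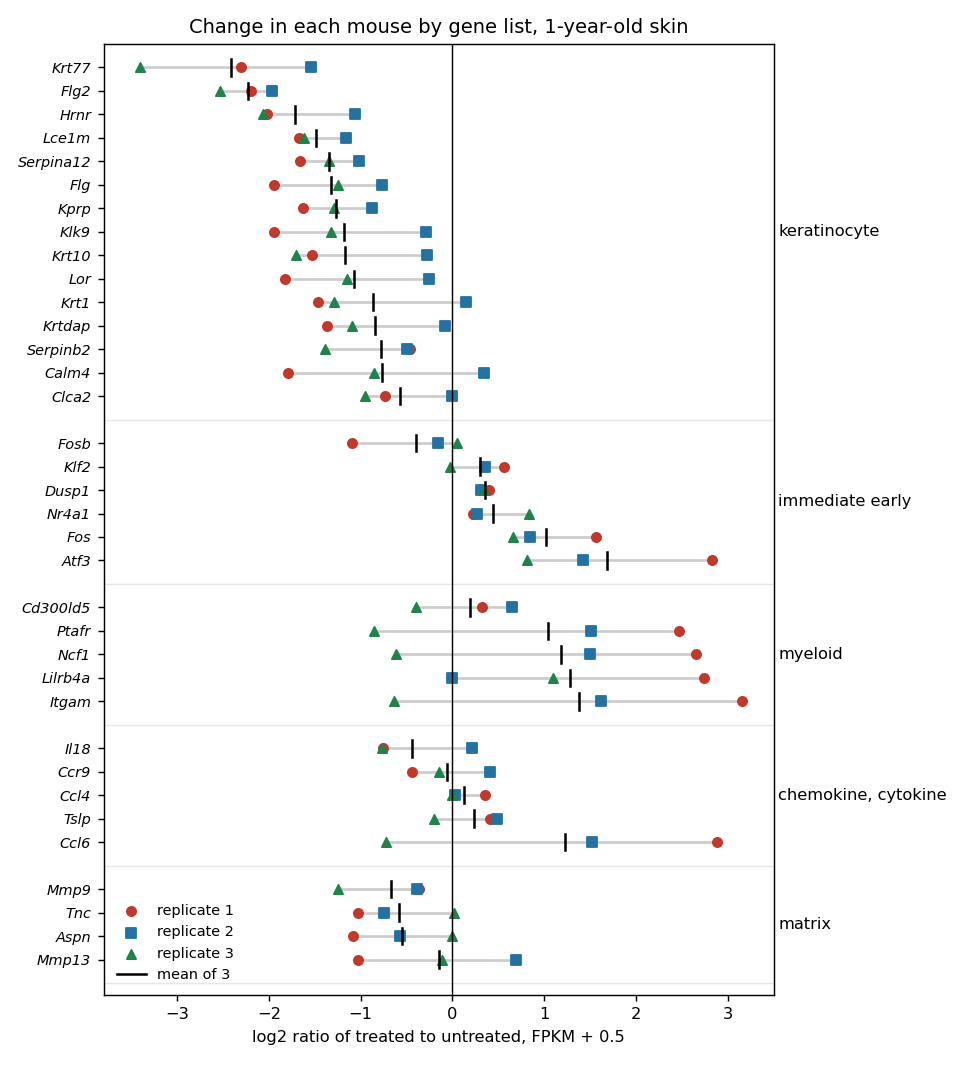
Log2 ratio of treated to untreated FPKM (with 0.5 added to each) in every mouse for members of 5 gene groups, with the mean as a black bar. Keratinocyte genes lay mostly left of 0 in all mice, whereas Itgam, Ncf1, Ptafr and Ccl6 lay right of 0 in replicates 1 and 2 and left of 0 in replicate 3.

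Among immediate early genes, all 6 listed genes were members and 1 (Atf3) rose. The median log2 fold change of the 6 was 0.41, beside -0.07 over all 141 genes, and 4 (Atf3, Fos, Nr4a1 and Dusp1) were higher in 3 of 3 mice, which held for 9.93% of the 141. Without replicate 1 the median was 0.47. In fits without the mouse block it was 0.06, with 2 of 6 genes negative, when only treated replicate 1 was left out, and 0.59 when only untreated replicate 1 was. Summed over the 6 genes, FPKM was 58.9, 33.7 and 40.6 in untreated and 128, 50.2 and 53.9 in treated replicates 1 to 3.

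Atf3 had 4.9, 3.31 and 3.73 FPKM in untreated and 37.8, 9.73 and 6.9 FPKM in treated replicates 1 to 3 (3.98 ± 0.823 against 18.1 ± 17.1, SD, n = 3 each). The untreated libraries were close to each other, every treated library was above them, and treated replicate 1 was far above the rest. The log2 fold change was 1.8 (SE 0.45, edgeR adjusted p = 0.0322). Without replicate 1 it was 1.22 (adjusted p = 0.817, unadjusted p = 0.0754).

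Fos, which encodes a subunit of AP-1, had 11.1, 3.42 and 2.52 FPKM in untreated and 33.6, 6.55 and 4.28 FPKM in treated skin. Treated skin was 3.04, 1.91 and 1.7 times higher in the same mouse, but untreated replicate 1 lay above treated replicates 2 and 3. The log2 fold change of 1.11 (SE 0.37) passed the threshold of the methods but not the adjusted test (edgeR unadjusted p = 0.0102, adjusted p = 0.111). The adjusted p-value was 0.00848 in edgeR with TMM factors, 0.0187 in DESeq2 with its own size factors (0.0766 with library totals) and 0.0159 in edgeR without replicate 3. The paired estimate without replicate 1 was 0.85 (edgeR adjusted p = 0.985). Without the mouse block it was -0.06 when treated replicate 1 was left out and 2.32 when untreated replicate 1 was.

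Nr4a1, an orphan nuclear receptor, had 6.06, 5.99 and 5.11 against 7.14, 7.33 and 9.47 FPKM, with no overlap but small ratios (log2 fold change 0.47, SE 0.36, edgeR adjusted p = 0.638). Dusp1, a phosphatase that switches off MAP kinases, differed by 0.31 to 0.4 on the log2 scale in each mouse. Fosb had a negative log2 fold change (-0.8, SE 0.66, edgeR adjusted p = 0.646), at 1.38, 0.286 and 0.149 against 0.381, 0.203 and 0.174 FPKM. The list of heat shock response genes had no listed member, so that response was not analysed here. Dnajb9, a DnaJ chaperone of the endoplasmic reticulum that was not on the list, had 16.2, 18.1 and 19.4 against 17, 18 and 16.5 FPKM (log2 fold change -0.06, SE 0.35, edgeR adjusted p = 0.96).

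The promoters of Atf3 and Fos are shown because these genes had the largest fold changes of the group. Capitals mark TGACG on either strand (CGTCA as printed when it is on the other strand), the core of the cAMP response element TGACGTCA and contained in it.
Atf3 promoter, chr1:191183334-191183583, minus strand: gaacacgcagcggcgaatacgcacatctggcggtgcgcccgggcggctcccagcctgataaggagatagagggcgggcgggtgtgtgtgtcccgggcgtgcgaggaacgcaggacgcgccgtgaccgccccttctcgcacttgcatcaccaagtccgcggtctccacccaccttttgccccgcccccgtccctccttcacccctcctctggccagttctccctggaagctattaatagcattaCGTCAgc
Fos promoter, chr12:85473640-85473889, plus strand: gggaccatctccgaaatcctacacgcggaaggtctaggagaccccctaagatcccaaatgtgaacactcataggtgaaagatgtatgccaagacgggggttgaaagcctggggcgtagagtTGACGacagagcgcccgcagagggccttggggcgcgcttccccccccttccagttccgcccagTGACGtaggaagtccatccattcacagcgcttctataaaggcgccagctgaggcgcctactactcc
The letters lay 7 bases before the start in Atf3 and 129 and 66 bases before it in Fos. They stood in the promoters of 6 of 6 genes of the group and in 17.8% of all promoters, and the full element TGACGTCA only in that of Dusp1 (1.55% of all). A heat shock element, also searched on both strands, stood in 0 of 133 promoters of members (0.466% of all).

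Xirp1 was the gene whose call depended least on replicate 1 among those that rose. It had 1.63, 2.34 and 4.97 FPKM in untreated and 4.72, 8.93 and 24.4 FPKM in treated replicates 1 to 3 (2.98 ± 1.76 against 12.7 ± 10.4, SD, n = 3 each). The groups overlapped slightly, since untreated replicate 3 was above treated replicate 1, but each treated library was 2.9 to 4.91 times above its own control. The log2 fold change was 1.92 (SE 0.38, edgeR adjusted p = 0.0132), and 2.11 without replicate 1 (adjusted p = 0.0262). The other member of the striated muscle group, Smtnl2, a smoothelin-like protein, had 3.98, 9.2 and 10.2 against 6.33, 9.9 and 21.5 FPKM, and was also highest in treated replicate 3 (log2 fold change 0.6, SE 0.36, edgeR adjusted p = 0.405). The amount of muscle below the skin in each sample was not tested.

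Rnf128 had 1.3, 2.12 and 1.11 FPKM in untreated and 21.7, 4.48 and 2.78 FPKM in treated replicates 1 to 3, without overlap. Treated replicate 1 stood far above the other treated libraries, with a ratio of 16.8 to its control beside 2.11 and 2.51 in the other mice. The log2 fold change was 2.11 (SE 0.57, edgeR adjusted p = 0.0445), and 1.19 without replicate 1 (adjusted p = 0.985).

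Of 8 listed myeloid genes 5 were members, and 0 passed edgeR's adjusted test, with 3 past the threshold of the methods (Itgam, Ncf1 and Lilrb4a), beside 7.8% of all members in the higher direction. DESeq2 called 1 of the 5, and edgeR under TMM factors 4, beside 8.51% of all members called higher there. The median log2 fold change of the 5 genes was 1.27, beside -0.07 over all genes, while the medians by mouse were 2.66, 1.5 and -0.62 in replicates 1, 2 and 3. With FPKM rescaled by TMM factors they were 2.83, 1.63 and -0.08, so that the size of the negative value in replicate 3 depended on the scaling. Without replicate 1 the median was 0.47 with 1 gene called, Lilrb4a, whose counts were then 0 and 0 against 0 and 5, so that this call rests on 5 counts in 1 library. Without replicate 3 the median was 2.17 with 3 called, beside 7.8% of all members called higher there. No myeloid gene was higher or lower in 3 of 3 mice. With FPKM rescaled by TMM factors, 1 (Cd300ld5) was higher in 3 of 3, beside 29 of the 141 members. On the other immune lists, Ccl4 was higher in 3 of 3 (log2 fold change 0.28, SE 0.78, edgeR adjusted p = 0.951) and Jchain, the joining chain of polymeric antibodies, lower in 3 of 3 (log2 fold change -1.57, SE 0.76, edgeR adjusted p = 0.287). Others ran differently from Itgam: the log2 ratios in replicates 1 to 3 were -0.76, 0.21 and -0.77 for Il18, -1.1, 0.14 and -0.77 for H60c, and -0.44, 0.41 and -0.15 for Ccr9. Tslp, at 0.41, 0.49 and -0.2, had the sign of Itgam in each mouse.

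**Figure D3:**
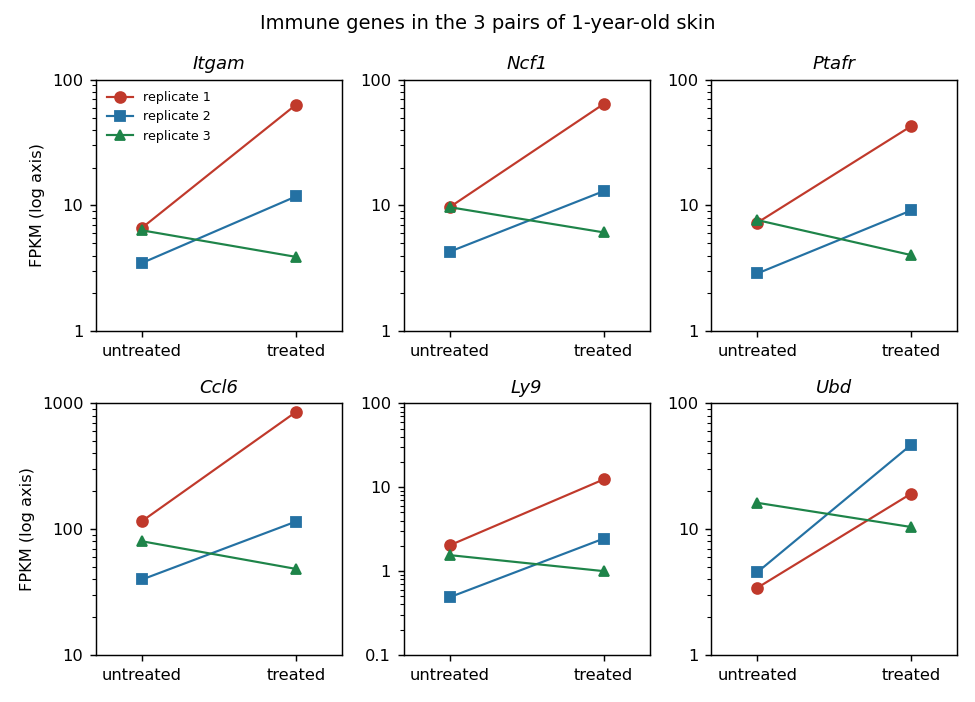
FPKM (log axis) of 6 immune genes in untreated and treated skin, with a line joining the libraries of a mouse. The genes were chosen for display after their values had been seen. In replicates 1 and 2 every line ascends and in replicate 3 every line descends, which under TMM factors shrinks to log2 ratios of -0.04 to -0.32.

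Itgam, the integrin chain CD11b, had 6.65, 3.49 and 6.34 FPKM in untreated and 63.3, 11.8 and 3.9 FPKM in treated replicates 1 to 3. Treated replicate 1 was 9.53 times its control and treated replicate 2 was 3.38 times, whereas treated replicate 3 was below its own. The log2 fold change of 1.48 (SE 0.66, edgeR adjusted p = 0.254) became 0.53 without replicate 1 (adjusted p = 0.985) and 2.5 without replicate 3 (adjusted p = 0.000104). Ncf1, a subunit of the phagocyte NADPH oxidase, followed the same order, at 9.7, 4.29 and 9.69 against 64.1, 13 and 6.11 FPKM. Its log2 fold change of 1.27 (SE 0.58, edgeR adjusted p = 0.26) became 0.47 without replicate 1 (adjusted p = 0.985) and 2.17 without replicate 3 (adjusted p = 5.05e-05). Ptafr, the receptor for platelet-activating factor, had 7.3, 2.88 and 7.65 against 42.8, 9.14 and 4.03 FPKM.

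Ccl6, a chemokine of myeloid cells, was the most abundant of these genes, at 116, 39.8 and 80.1 FPKM in untreated and 856, 115 and 48.3 FPKM in treated skin (log2 fold change 1.27, SE 0.74, edgeR adjusted p = 0.398). Ly9, a receptor of the SLAM family on lymphocytes and macrophages, had 2.03, 0.488 and 1.55 against 12.4, 2.44 and 0.999 FPKM. Ubd, a ubiquitin-like modifier induced by interferon-gamma and tumor necrosis factor, differed in that treated replicate 2 was highest, at 3.42, 4.55 and 16.2 against 19.2, 47 and 10.4 FPKM. Its log2 fold change of 1.81 (SE 0.68, edgeR adjusted p = 0.175) became 1.33 without replicate 1 (adjusted p = 0.707), 0.91 without replicate 2 (adjusted p = 0.653) and 2.93 without replicate 3 (adjusted p = 1.59e-06). Its adjusted p-value was 0.000326 in edgeR with TMM factors and 0.0303 in DESeq2 with its own size factors (0.0518 with library totals). Lilrb4a, an inhibitory receptor, was listed at 1.1, 0 and 0 against 10.2, 0 and 0.569 FPKM (36, 0 and 0 against 337, 0 and 5 counts), so that replicate 2 held no information on it.

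Of the 20 members at least 2-fold higher in replicate 1, 5 were higher in 3 of 3 mice (Atf3, Fos, Rnf128, St18 and Xirp1), and 12 were lower in replicate 3, as were 96 of all 141 members (68.1%; 56 members with TMM factors). Of these 12, 11 were higher in replicate 2. Among the 5, St18 was higher in replicate 3 by FPKM and not by counts. Conversely, 24 members were at least 2-fold lower in replicate 1, and 14 of them were lower in 3 of 3 mice. Over the 141 genes the log2 ratios of replicates 1 and 2 had a Pearson r of 0.51, those of 1 and 3 an r of 0.46 and those of 2 and 3 an r of 0.08, as a description across genes, which are not independent.

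The question of which differences rest on treated replicate 1 was put to the 75 members with at least a 1.2-fold mean change over the 3 mice (on log2 of FPKM + 0.5). For 18 of them (12.8% of the 141), replicate 1 had the sign of the mean and the other mice averaged under 1.2-fold or the opposite sign. The number was 28 with FPKM rescaled by TMM factors and 10 with 1 added in place of 0.5. None of these 18 passed edgeR's adjusted test with library totals and 6 libraries, and 2 (St18 and Nptx1) were past the threshold of the methods. St18 met this rule because its FPKM was small beside the added 0.5: by counts its log2 fold change without replicate 1 was 1.76 (edgeR unadjusted p = 0.0458, adjusted p = 0.646), still past the threshold of the methods. In other edgeR fits the adjusted p-value of St18 was 0.0114 with TMM factors, 0.00654 with all 12 libraries and 0.032 with robust estimation, and that of Nptx1 was 0.0053 with TMM factors and 0.000428 without replicate 3. The 11 higher genes and the 7 lower genes differed in which library was extreme. Treated replicate 1 was the highest of the 6 libraries for 8 of the 11 higher genes (Gm2026, Klf2, Nptx1, Rab39, Reps2, St18, Tmem71 and Tnfrsf11a). All 7 lower genes (Calm4, Ccdc113, Cfi, Fosb, Iigp1, Slc45a3 and Tnfaip8l3) had their highest level in untreated replicate 1, and treated replicate 1 was the lowest library for none of them.

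**Figure D4:**
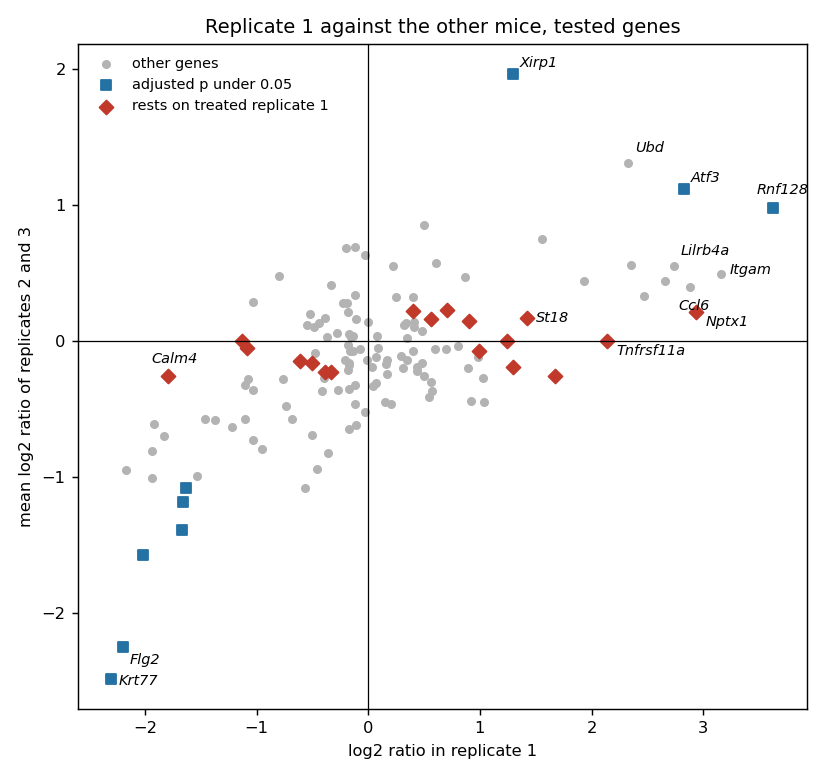
Log2 ratio of treated to untreated FPKM (with 0.5 added) in replicate 1 against the mean of replicates 2 and 3, for 141 genes. Genes that rest on replicate 1 (red diamonds) lay near 0 on the vertical axis, and the genes with an adjusted p-value under 0.05 (blue squares) lay away from 0 on both.

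Tnfrsf11a, the receptor for RANK ligand, had 1.54, 1.02 and 1.73 FPKM in untreated and 8.49, 1.71 and 1.04 FPKM in treated replicates 1 to 3, and its log2 fold change of 0.84 became 0.01 without replicate 1. Nptx1, a secreted neuronal pentraxin, was counted 9, 9 and 9 times without treatment and 524, 52 and 1 times with it (log2 fold change 2.97, SE 1.18, edgeR adjusted p = 0.194). St18, a zinc finger transcription factor, had 4, 3 and 1 against 102, 16 and 1 counts, so that replicate 3 showed no difference in counts although its FPKM was higher after treatment. Calm4, a calmodulin-like protein of the suprabasal epidermis, had 1515, 250 and 354 against 438, 317 and 196 FPKM, and it was untreated replicate 1 that stood apart. Krt18 and Serpinb6d were highest in untreated replicate 2. Both were higher after treatment in replicates 1 and 3 and lower in replicate 2, at 0.03, 0.933 and 0.169 against 0.809, 0.508 and 0.227 FPKM for Krt18 and at 0.237, 3.73 and 0.42 against 1.85, 0.727 and 1.71 FPKM for Serpinb6d.

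Among the 26 genes past the threshold of the methods, all kept their sign without replicate 1, and 9 were still past it. These were 3 of the 11 higher genes (Lilrb4a, St18 and Xirp1) and 6 of the 15 lower genes (Flg2, Hrnr, Kprp, Krt77, Lce1m and Lrrtm4). Of the 3 higher ones, Lilrb4a then rested on 5 counts in treated replicate 3 and St18 on 16 counts in treated replicate 2, whereas Xirp1 had 315 and 705 against 1413 and 3448 counts. Of the 6 lower ones, Lrrtm4 was highest in untreated replicate 2. With FPKM rescaled by TMM factors its log2 ratios were -0.09, -1.16 and 0.1 in replicates 1 to 3, so it rested mostly on replicate 2. Without replicate 1 the log2 fold change moved by more than 1.5 times for 6 of the 11 higher genes and for 1 of the 15 lower genes. Treated replicate 1 was the highest library for 9 of the 11 higher genes, and untreated replicate 1 for 13 of the 15 lower genes. Of the 9 genes with an adjusted p-value under 0.05, 2 (Flg2 and Xirp1) were still called without replicate 1, 0 without replicate 2 (edgeR; 27 genes had an unadjusted p-value under 0.05) and 7 without replicate 3, in fits with 1 residual degree of freedom.

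In the other groups, 0 or few genes passed a test. Of 4 members among matrix genes and matrix proteases (Aspn, Mmp13, Mmp9 and Tnc), 0 passed edgeR's adjusted test and 0 the threshold of the methods. All 4 had a negative log2 fold change (median -0.6), and under TMM factors and in both DESeq2 fits 3 did and 1 was positive. In fits without the mouse block, the median was -1.49 when treated replicate 1 was left out, and -0.1 with 2 lower and 2 higher genes when untreated replicate 1 was. Mmp9, a gelatinase, had 6.04, 2.14 and 3.73 FPKM in untreated and 4.61, 1.51 and 1.27 FPKM in treated skin, lower in each mouse (log2 fold change -0.8, SE 0.42, edgeR adjusted p = 0.338). In the same fits without the block it had -1.51 and -0.25. Tenascin C (Tnc), a matrix protein of wound repair, had 13.4, 5.18 and 2.08 against 6.3, 2.87 and 2.13 FPKM.

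Of 8 neuronal and synaptic members, 3 (Htr5b, Lrrtm4 and Kctd4) were lower at the threshold of the methods, beside 10.6% of all members, at levels below 4 FPKM in every library. Scaled by TMM or by the summed listed counts, 0 of the 8 were lower at that threshold, and 0 passed edgeR's adjusted test in any of these fits. The difference of Lrrtm4 lay mostly in replicate 2, with log2 ratios of -0.09, -1.16 and 0.1 in replicates 1 to 3 (FPKM rescaled by TMM factors). Gabbr2, a GABA-B receptor subunit, was higher in 3 of 3 mice without overlap, at 0.059, 0.045 and 0.049 against 0.243, 0.095 and 0.078 FPKM (edgeR adjusted p = 0.389). Its counts were 8, 6 and 7 against 36, 15 and 11. It thus reached the mean count of 10 only through treated libraries, and its direction is no separate evidence. Bbox1, the last enzyme of carnitine synthesis, was lower in each mouse without overlap, at 14.4, 5.18 and 7.41 against 2.81, 3.84 and 2.28 FPKM (log2 fold change -1.26, SE 0.42, edgeR unadjusted p = 0.00977, adjusted p = 0.111). Of the interferon-response members, Ubd was higher and Oas1f lower at the threshold of the methods, and Ifit2 had a log2 fold change of 0.02. Chemokines and their receptors, lymphoid genes, histones and platelet genes held 0 genes with an adjusted p-value under 0.05 in edgeR with library totals and in both DESeq2 fits. Ly9 was past the threshold of the methods, and its adjusted p-value was 0.0107 in edgeR with TMM factors and 0.000611 without replicate 3.

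Over all 141 members, 14 were higher and 33 lower in 3 of 3 mice, and 94 did not move alike. With FPKM rescaled by TMM factors, 29 were higher and 22 lower in 3 of 3 mice. Counts divided by library totals in place of FPKM gave 14 and 32, of which 13 and 32 were the same genes. The groups did not overlap for 6 higher genes (4.26%) and 13 lower genes (9.22%). The higher ones were Atf3, Gabbr2, Nr4a1, Rab39, Rnf128 and St18. For St18 this held by FPKM only, since its count in treated replicate 3 was not above any untreated one. Gabbr2 and St18 had fewer than 10 counts in each untreated library, so they were members only through treated libraries. The lower ones included 7 of the keratinocyte group.

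The response of the 9 genes was set beside that of 4-month-old skin, in a fit that held all 12 libraries and a term for each mouse. The 141 genes had been chosen for a difference at 4 months, and the 9 genes for their call at 1 year, so the difference between ages reuses both choices and its p-values are no independent evidence. For the 6 fallen genes the response differed between ages with an adjusted p-value under 0.05, which held for 8.51% of the 141 genes. Flg2 had 14, 2.81 and 1.43 FPKM in untreated and 13.1, 6.32 and 3.52 FPKM in treated 4-month-old skin, and the difference of its log2 fold changes (1 year minus 4 months) was -3.2 (SE 0.45, edgeR adjusted p = 0.00269). Krt77 had 106, 34.9 and 10.7 against 179, 55.1 and 22.5 FPKM at 4 months, with a difference of -3.26 (SE 0.56, edgeR adjusted p = 0.00509). For Atf3 the difference was 0.65 (SE 0.57, edgeR adjusted p = 0.408), for Rnf128 1.33 (SE 0.74, adjusted p = 0.219) and for Xirp1 1.35 (SE 0.4, adjusted p = 0.0594).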

How the data were processed

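RNA from dorsal skin was measured in 3 untreated and 3 treated areas of 1-year-old ICR mice. The authors extracted total RNA with Trizol, made oligo(dT)-enriched libraries with a NEBNext Ultra kit, which does not mark strand, and sequenced them on an Illumina NovaSeq instrument. The submitters' processing notes name Bowtie2 2.2.8 and the build GRCm39, and the counting program is not given in the sources used here. The deposited table holds an expected count of each gene's fragments as the authors estimated it, without normalization, and FPKM values that the authors scaled by transcript length and mapped fragments. Of the counts, 9.5% were not whole, so fragments shared between near-identical genes were split and such genes are uncertain. The study selected the 465 listed genes on its 4-month-old skin.

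Samples were grouped by their labels. Library totals were derived from the ratios of count to FPKM of 77 genes with at least 50 counts, of which 9 single-transcript genes of GENCODE M21 set the scale. Their number limits the precision, and 3 counts were taken as the smallest level seen. The rounded counts of the 6 libraries were fitted by glmQLFit of edgeR 4.0.16 (R 4.3.3) and tested by glmQLFTest, with the derived totals as library sizes and the mouse as a block, which left 2 residual degrees of freedom. SE is the size of the log2 fold change divided by the square root of F. Libraries were paired by the mouse number in the labels, since the methods describe each mouse as its own control. As a check, deviations from group means correlated between areas of the same mouse (0.52, 0.3 and 0.22) and by -0.44 to 0.26 between mice. Treated replicate 3 correlated more with untreated replicate 2 (0.26) than with its own control (0.22), so the check cannot settle the pairing of replicate 3. Deviations from a shared group mean also pull the values between mice downward. Ratios per mouse used log2(FPKM + 0.5). Alternatives were TMM factors, the sum of listed counts, DESeq2 1.42.0, limma 3.58.1 on log2(FPKM + 0.5, 0.1 or 1), other filters, no block and leaving out each replicate or one library of replicate 1, of which leaving out untreated replicate 1 alone was added after seeing the data. Simulated counts with known changes served as a test of this fit. Members, gene lists, tests and the rule for named genes were chosen with earlier results of these data known. The rule named genes with an adjusted p-value under 0.05, genes past the threshold of the methods that moved alike in 3 mice (up to 10 per direction), members of the lists, genes named in the paper, and up to 12 genes that rest on replicate 1. Coordinates are of GRCm38 (GENCODE M21) and not of the authors' build. Promoters are RefSeq's, and 133 promoters matched 107 of the 141 genes. The table also holds GO and KEGG annotation, which was not used. Figures were made with Python 3.11.15 and matplotlib 3.10.9.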

Additional observations from a re-analysis of the deposited data

Results flagged for a closer look

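The 6 genes that fell in 1-year-old skin were flagged because their response to treatment differed between the ages by an interaction test. Their log2 fold changes at 1 year minus those at 4 months were -3.2 for Flg2, -3.26 for Krt77, -2.54 for Hrnr, -2.35 for Serpina12, -2.11 for Lce1m and -1.98 for Kprp, with edgeR adjusted p-values of 0.00269 to 0.00515 in the fit of 12 libraries. At 4 months their log2 fold changes were 0.62 to 0.82, and at 1 year each gene was lower in 3 of 3 mice. All listed genes had been chosen for a difference at 4 months, and these 6 for their call at 1 year. The interaction reuses both choices, so its p-values describe these libraries and are no independent evidence of a difference between ages. The untreated 4-month-old libraries differed among themselves, with Flg2 at 14, 2.81 and 1.43 FPKM, and the 1-year-old ones did too, at 34.4, 14.3 and 11.4 FPKM. The part of this difference between untreated areas in the result was not tested.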

How the results depend on the processing

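The number of genes with an adjusted p-value under 0.05 (9 by edgeR with the mouse block and library totals) was 17 with TMM factors, 5 by limma on log2(FPKM + 0.5) and on log2(FPKM + 0.1), 1 by limma on log2(FPKM + 1), 2 with the older quasi-likelihood method and 0 without a filter on low counts, where 421 genes were tested and 36 had an unadjusted p-value under 0.05. Without the replicate block, edgeR gave 0 with all 6 libraries, 0 without treated replicate 1 and 0 without untreated replicate 1, and 16, 15 and 5 genes passed the threshold of the methods in place of 26. Leaving out each replicate gave 0 to 15 genes by the adjusted test and 10 to 27 by the threshold of the methods. With a mean count of 50 or more, 100 genes were tested and 17 passed that threshold. With all 12 libraries, the sum of listed counts, both DESeq2 fits, filterByExpr, a mean count of 50 and robust estimation, the number by the adjusted test was 6 to 13. The number of genes that rest on replicate 1 (18) was 10 with a pseudocount of 1, 28 with FPKM rescaled by TMM factors, 20 with a pseudocount of 0.1 and 16 with a threshold of 1.5-fold. Fos reversed to -0.06 without the block and treated replicate 1. The causes of these differences were not tested.

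Over 24 named genes and 19 settings (453 values), 347 values kept their direction and side of the threshold, 85 lost and 20 gained significance, and 1 reversed. Flg2 was called in 14 of 19 settings, Xirp1 in 13, Krt77 and Lce1m in 10, Hrnr in 9, Atf3 and Serpina12 in 8, and Kprp and Rnf128 in 7. With 3 pairs and 2 residual degrees of freedom, the spread of a gene borrows from the other 140 genes of a selected table.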

Other observations

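Some genes named in the study's text were listed but had a mean count under 10 in 1-year-old skin, so they were not members. The chemokine genes Ccl20 and Cxcl5 ran in opposite directions. In replicates 1 to 3, the counts of Ccl20 were 25, 6 and 16 without treatment and 5, 4 and 1 with it, and those of Cxcl5 were 2, 0 and 0 against 20, 5 and 1. The coagulation factor gene F9 had 0, 1 and 0 against 13, 5 and 0 counts. Chrng, the fetal gamma subunit of the muscle acetylcholine receptor, had 21 counts in treated replicate 1 and 0 in the other 5 libraries. Reg2, Treml1, Cstdc2 and Akap3 had at most 8 counts in any library.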
